A study of Mus musculus with 6 samples.

Results

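The heat shock chaperone genes of the cytosol and mitochondria were followed in cultured heart muscle cells in which Gdf11 was lowered. The group was chosen by gene name and biotype: protein-coding genes named as HSP70, HSP90, small heat shock protein, chaperonin, J-domain (DNAJ), BAG or heat shock factor genes, leaving out 6 chaperones of the endoplasmic reticulum (Hspa5, Hspa13, Hsp90b1, Dnajb9, Dnajb11 and Dnajc3). It holds 76 of the 54532 genes listed. The names use no expression value, but the group was proposed with results of this comparison known, so the fold changes and calls below are a description of these genes and support nothing further. Some members go against the name of the group, and those named here need not be all of them. Dnajb12, Dnajb14, Dnajc1, Dnajc10 and Dnajc25 encode proteins of the endoplasmic reticulum, and Hspb11 encodes a subunit of intraflagellar transport rather than a chaperone. The heat shock factors, which drive inducible genes, are counted as chaperone genes below.

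Primary ventricular cardiomyocytes were isolated from C57BL/6J mice aged 1 day and given a short hairpin RNA, which is made into a small RNA that brings down the transcript it matches. In the shGDF11 group (3 libraries) the hairpin was directed against Gdf11, and in the control group (3 libraries) it was a control construct, called sh-nc in the sample names and sh-Vector in the protocol. Both constructs were given at a multiplicity of infection of 200, and total RNA was taken after 48 h and sequenced. Nothing in the labels says that the libraries of a group came from separate cultures or, for shGDF11, from 1 hairpin sequence, so the spread on which p-values rest may be a technical one.

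Chaperones bind unfolded or aggregating proteins and return them to a folded state or pass them on for degradation. HSP70 proteins do this in cycles of ATP hydrolysis that J-domain proteins start and nucleotide exchange factors, among them several BAG proteins, end. HSP90 acts later, on kinases and steroid receptors, while small heat shock proteins hold unfolded proteins without ATP and are abundant in heart muscle, where several bind to the sarcomere. Heat shock factors, above all Hsf1, drive the inducible genes through heat shock elements, which are runs of alternating GAA and TTC units.

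Gdf11 itself, which encodes a secreted growth factor related to myostatin, stood at 0.614, 0.601 and 0.778 FPKM (fragments scaled by gene length and sequencing depth) in the shGDF11 libraries, against 2.76, 2.30 and 2.31 FPKM in the control libraries. The groups did not overlap. The log2 fold change was -1.34 ± 0.125 (SE; limma adjusted p = 0.000794), and p was 0.1 by an exact permutation test (two-sided), which cannot go lower with groups of 3. The libraries held 15267083 to 16152910 reads in listed genes, and for a gene of 1 kb 3 reads, the floor used for counting error, amount to 0.18 to 0.191 FPKM. Ribosomal RNA genes took 0.47% to 0.502% of reads in shGDF11 libraries and 0.298% to 0.319% in control libraries.

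Summed markers of other cell types differed between the groups, while the share called did not stand out in every set. Over all genes tested 27.6% were called. For markers the called share was 75% in the endothelial, 62.5% in the smooth muscle and pericyte and 50% in the cardiomyocyte set. In the macrophage set it was 33.3% of those tested and in the fibroblast set 25%, near the share of all genes. Summed over 8 genes each, markers of smooth muscle and pericytes came to 566 to 584 FPKM in shGDF11 and 1200 to 1316 FPKM in control libraries, with 5 lower in shGDF11 and none of them under 0.5 FPKM in all libraries. Endothelial markers summed to 43.7 to 47.0 FPKM in shGDF11 and 65.3 to 67.9 FPKM in control, with 6 lower. Macrophage markers summed to 118 to 128 FPKM in shGDF11 and 147 to 170 FPKM in control, with 2 of the 6 tested lower and Ptprc and Cx3cr1 under 0.5 FPKM in every library. Fibroblast markers summed to 368 to 386 FPKM in shGDF11 and 291 to 346 FPKM in control, with 2 higher. The cardiomyocyte markers, which match the labelled cell type, were the most abundant set, at 3613 to 3888 FPKM in shGDF11 and 3853 to 4313 FPKM in control, with 1 higher and 3 lower. All 8 erythroid markers lay under 0.5 FPKM in every library, with sums of 0.570 to 0.980 FPKM in shGDF11 and 0.125 to 0.490 FPKM in control. The part of these cells in the chaperone results was not tested, and in bulk RNA fewer cells of a type and less RNA per cell cannot be told apart.

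Of the 76 chaperone genes, 68 had a mean of at least 0.5 FPKM and were tested. In the test over all 15418 genes at that level, 10 were called higher in shGDF11 at an adjusted p under 0.05, 15 were called lower and 43 were not called. The called share was 36.8%, beside 27.6% of all genes tested and 30.3% of the protein-coding genes tested. Over all genes tested, 14.4% were called higher and 13.1% lower. Of all called genes 52.4% were higher, and 66.2% after rescaling to TPM, under which the chaperone calls numbered 13 higher and 13 lower. Values without overlap between the groups were found for 39 of the 68 chaperone genes, beside 45.8% of all genes tested. The median log2 fold change was -0.05 over the 68 genes and 0.01 over all genes, with a range of -1.96 to 1.08. The 8 genes below that level were Hsf3, Dnajb7, Dnajb8, Dnajb13, Dnajc5b, Dnajc5g, Dnajc6 and Hspb9, of which Dnajc5g was listed at 0 in every library. Leaving out 1 shGDF11 library left 6 chaperone genes called higher, whichever it was, and 9, 9 and 8 called lower without replicate 1, 2 and 3. By family, the inducible HSP70 pair, J class B, BAG and small heat shock protein genes held 12 of the 15 falls, and J class C genes 6 of the 10 rises. Exon bases opposite another gene, where reads cannot be told apart without strand, made up 19.0% in Hspa1a, 19.1% in Dnajc14, 14.8% in Bag4, 26.2% in Dnajc30 and 44.1% in Dnaja4.

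**Figure D1:**
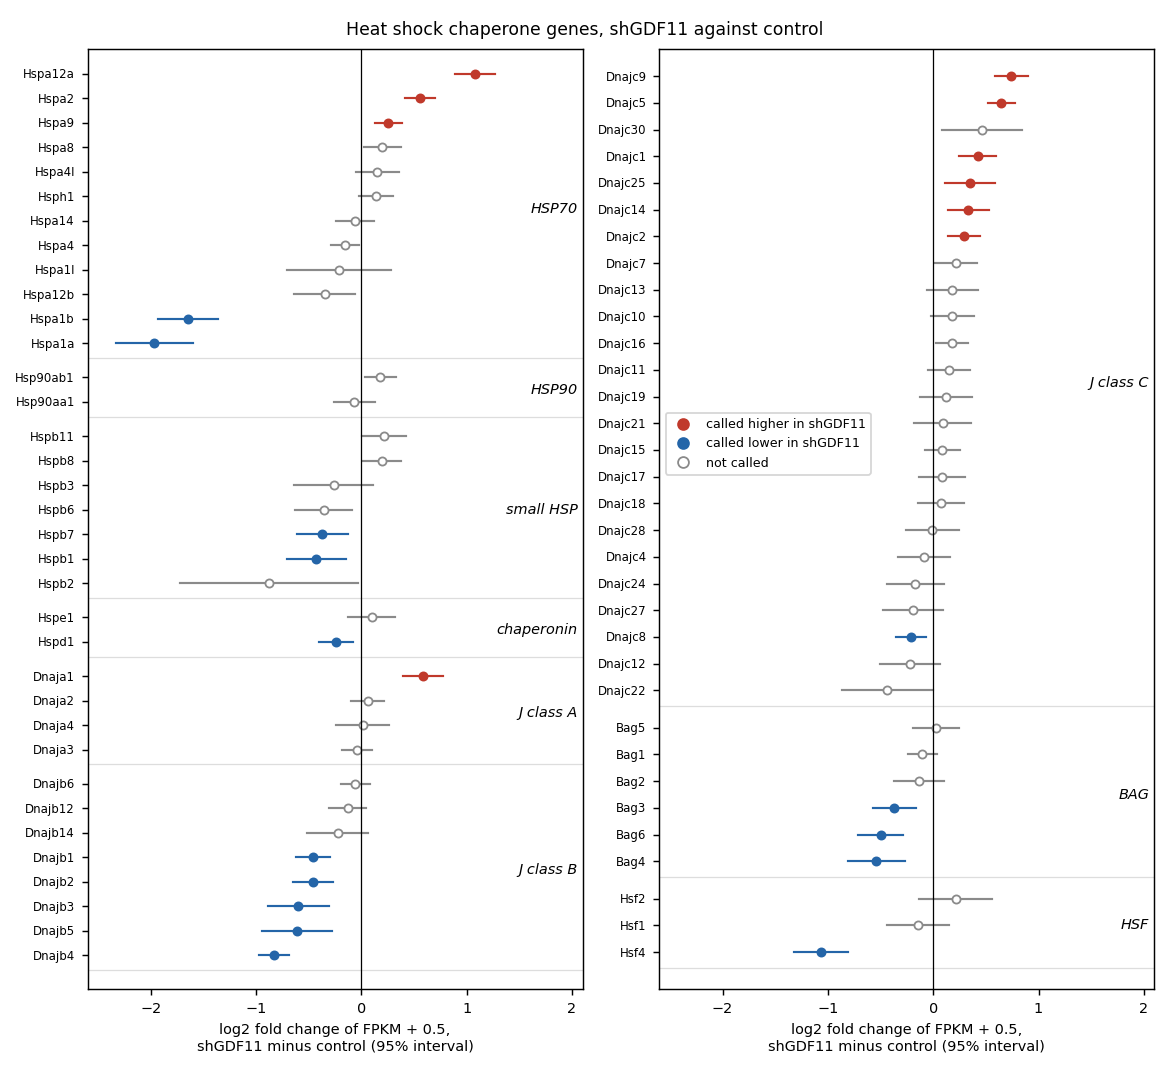
Log2 fold change of FPKM + 0.5, shGDF11 minus control, of the 68 tested chaperone genes by family, with 95% intervals from limma; filled points are called at an adjusted p under 0.05 and open points are not. Hspa12a has the highest value, 1.08, and Hspa1a the lowest, -1.96, both within the HSP70 family.

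The inducible HSP70 genes Hspa1a and Hspa1b, which encode the HSP70 proteins that cells make in large amounts after heat and other protein damage, fell the most of all the chaperone genes. Hspa1a (ENSMUSG00000091971) lies on the minus strand of chromosome 17 of GRCm38, chr17:34969190-34972156, and Hspa1b (ENSMUSG00000090877) beside it on the same strand, chr17:34956436-34959238. Hspa1a stood at 1.52, 1.46 and 1.46 FPKM in shGDF11 and at 9.14, 5.68 and 7.25 FPKM in control. Hspa1b stood at 4.86, 4.12 and 4.16 FPKM in shGDF11 and at 16.7, 12.5 and 15.4 FPKM in control. The shGDF11 libraries lay close together and each control library lay well above them, for both genes. The log2 fold change was -1.96 ± 0.156 (SE; limma adjusted p = 0.000467) for Hspa1a and -1.65 ± 0.119 (SE; adjusted p = 0.000361) for Hspa1b.

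These are near-identical copies, and 52.7% of the 75-base stretches of Hspa1a transcripts also occur in Hspa1b. Reads that match both may have been split between them or left uncounted, which was not tested. The sum is the safer measure under a split, but it would be too low if such reads were left uncounted. Together Hspa1a and Hspa1b took 298, 260 and 258 reads in shGDF11 and 1161, 864 and 1053 reads in control. As summed FPKM this was 5.86 ± 0.452 in shGDF11 and 22.2 ± 3.85 in control (SD, n = 3 each), a ratio of 0.264. Hspa8, the constitutive HSP70 of the same compartment, gives a scale for this: the inducible pair amounted to 1.36% ± 0.132 of Hspa8 FPKM in shGDF11 and 5.92% ± 1.15 in control. The promoters are copies too. Of 300 bases around each start, 296 are identical. The stretch from position -160 to -41 of the start, which holds an exact run of 2 alternating units, is the same in both. It is shown because these are the genes that moved most, with the exact run in capitals and any imperfect units beside it left unmarked. It is read from RefSeq on GRCm38.p6, minus strand, at chr17:34972197-34972316 for Hspa1a and chr17:34959279-34959398 for Hspa1b.
Hspa1a and Hspa1b: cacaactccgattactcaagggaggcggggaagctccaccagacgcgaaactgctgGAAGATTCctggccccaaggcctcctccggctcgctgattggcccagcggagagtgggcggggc

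Other HSP70 genes moved the other way or were not called. Of the 12 tested, 3 rose and 2 fell (41.7% called, beside 27.6% of all genes tested). The median log2 fold change of the 12 was 0.04. Hspa12a (ENSMUSG00000025092, minus strand, chr19:58795751-58860984), a distant HSP70 relative, stood at 5.59, 5.65 and 5.67 FPKM in shGDF11 and at 2.22, 2.61 and 2.41 FPKM in control. Each shGDF11 library lay at about the same level, above every control library. It rose by 1.08 ± 0.0786 (SE) on the log2 scale (limma adjusted p = 0.000361). Hspa2 (ENSMUSG00000059970, plus strand, chr12:76404176-76406938), an HSP70 best known from the testis, stood at 16.3, 15.2 and 15.0 FPKM in shGDF11 and at 10.4, 10.4 and 10.3 FPKM in control. Its groups did not overlap and its log2 fold change was 0.55 ± 0.0592 (SE; adjusted p = 0.00118).

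Hspa9, the HSP70 of the mitochondrial matrix (mortalin), stood at 207.7, 215.5 and 207.3 FPKM in shGDF11 and at 179.7, 173.0 and 175.2 FPKM in control. It rose by 0.26 on the log2 scale (limma adjusted p = 0.0137), and the adjusted p was 0.0512, 0.0708 and 0.0536 without shGDF11 replicate 1, 2 and 3. Hspa8 stood at 426.6, 452.6 and 412.9 FPKM in shGDF11 and at 358.6, 364.7 and 404.4 FPKM in control. All 3 shGDF11 libraries lay above all control libraries, with control replicate 3 nearest, but the gene was not called (log2 fold change 0.20, 95% interval 0.02 to 0.37, adjusted p = 0.0901). Without control replicate 3 its adjusted p was 0.0477, and by limma voom on recovered reads 0.0277. Of its 75-base stretches, 33.0% occur in other genes.

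The HSP110 genes, which act as exchange factors for HSP70, were not called. Hspa4 stood at 66.4, 70.3 and 64.3 FPKM in shGDF11 and at 73.3, 75.5 and 74.7 FPKM in control, without overlap (limma adjusted p = 0.0865). Hsph1 stood at 11.4, 12.2 and 11.9 FPKM in shGDF11 and at 9.97, 10.9 and 11.3 FPKM in control, also without overlap (adjusted p = 0.189). The values of Hspa4l were 10.3, 10.8 and 10.5 FPKM in shGDF11 and 8.31, 9.74 and 10.4 FPKM in control, which overlap. Hspa12b, Hspa14 and Hspa1l were not called either, with log2 fold changes between -0.35 and -0.06, and 71.9% of the exon bases of Hspa1l lie opposite another gene, so that its reads cannot be told apart without strand.

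HSP90 genes held a larger share of chaperone transcripts than any other family in both groups, and neither was called by limma, with 1 of 2 at an unadjusted p under 0.05 and 1 called by limma voom. Hsp90ab1, the constitutive HSP90, stood at 553.0, 582.8 and 564.1 FPKM in shGDF11 and at 520.0, 487.6 and 496.3 FPKM in control. The groups did not overlap, and the log2 fold change was 0.18 with a 95% interval of 0.03 to 0.32 (adjusted p = 0.0748). It was called without control replicate 1 (adjusted p = 0.0336), after rescaling to TPM (0.0216), with library weights (0.0219) and by voom (0.0259). Hsp90aa1, the heat-inducible HSP90, stood at 252.9, 255.8 and 248.9 FPKM in shGDF11 and at 236.7, 269.6 and 290.6 FPKM in control. The control values lay on both sides of the shGDF11 values (adjusted p = 0.582), and 42.8% of the gene's 75-base stretches occur in other genes.

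Of 7 small heat shock protein genes tested, 2 fell and 5 were not called (28.6% called, beside 27.6% of all genes tested). The median log2 fold change of the 7 was -0.36. Hspb1 (ENSMUSG00000004951, plus strand, chr5:135887919-135889563), which encodes the actin-protecting protein HSP25, stood at 162.7, 143.2 and 157.4 FPKM in shGDF11 and at 241.8, 209.5 and 176.5 FPKM in control. Hspb7, a sarcomere protein of the heart, stood at 155.1, 162.6 and 165.7 FPKM in shGDF11 and at 243.0, 187.8 and 198.1 FPKM in control. Neither gene's groups overlapped, and control replicate 3 for Hspb1 and control replicate 2 for Hspb7 came nearest to the shGDF11 libraries. Hspb1 fell by 0.43 on the log2 scale (limma adjusted p = 0.0356) and Hspb7 by 0.37 (adjusted p = 0.0341).

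Neither call held when an shGDF11 library was left out. For Hspb1 the adjusted p was 0.0723, 0.122 and 0.0909 without shGDF11 replicate 1, 2 and 3. It was 0.0512, 0.0905 and 0.0109 without control replicate 1, 2 and 3. For Hspb7 it was 0.108, 0.0966 and 0.0842 without shGDF11 replicate 1, 2 and 3. The Hspb7 call held without control replicate 1, 2 or 3 (0.0184, 0.0319 and 0.0479). The family count was 0 without any 1 shGDF11 library, 1 without control replicate 1 and 4 without control replicate 3. In Hspb1, 46.4% of the 75-base stretches also occur in its pseudogene Hsp25-ps1.

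Hspb6, which encodes HSP20 of heart and smooth muscle, stood at 51.6, 48.6 and 56.5 FPKM in shGDF11 and at 74.6, 71.1 and 56.7 FPKM in control, with control replicate 3 level with the highest shGDF11 library (limma adjusted p = 0.0552). Hspb6 was called without control replicate 3 (adjusted p = 0.0105). Hspb2, a partner of Hspb3 in muscle, stood at 18.1, 15.7 and 16.3 FPKM in shGDF11 and at 57.0, 27.9 and 18.6 FPKM in control. Its control libraries differed about as much among themselves as from shGDF11, and the fold change of -0.88 was not called (adjusted p = 0.113). It was -0.44 without control replicate 1 (adjusted p = 0.104) and -1.24 without control replicate 3 (0.0249), and was called by limma voom on recovered reads (0.041) and with library weights (0.0445) too. Hspb2 and Cryab lie head to head, and 30.2% of the exon bases of Hspb2 lie opposite Cryab, so without strand their reads there cannot be told apart. Hspb8, the partner of Bag3 in disposing of damaged filament proteins, stood at 63.3, 55.0 and 64.0 FPKM in shGDF11 and at 55.5, 52.1 and 51.1 FPKM in control, with overlap (log2 fold change 0.20, adjusted p = 0.098). Hspb3 and Hspb11 were not called, with log2 fold changes of -0.26 and 0.22, although Hspb3 was without control replicate 2 (adjusted p = 0.0281). Smooth muscle and pericyte markers were lower in shGDF11 in the same direction as Hspb1, Hspb6 and Hspb7, by the sums given above, and their part in this was not tested.

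Mitochondrial chaperonin genes did not move as a pair. Hspd1 encodes HSP60, the barrel in which matrix proteins fold, and Hspe1 encodes HSP10, its lid. Hspd1 (ENSMUSG00000025980, minus strand, chr1:55077835-55088243) stood at 117.0, 121.3 and 113.6 FPKM in shGDF11 and at 147.1, 128.2 and 141.1 FPKM in control. Hspe1 (ENSMUSG00000073676, plus strand, chr1:55088132-55091307) stood at 103.4, 104.4 and 91.7 FPKM in shGDF11 and at 89.5, 85.5 and 105.3 FPKM in control. The shGDF11 values of Hspd1 all lay below those of control, while those of Hspe1 overlapped.

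Hspd1 fell by 0.24 on the log2 scale (limma adjusted p = 0.0401) and Hspe1 was not called (log2 fold change 0.10, adjusted p = 0.48). The ratio of Hspd1 to Hspe1 FPKM was 1.18 ± 0.055 in shGDF11 and 1.49 ± 0.152 in control (SD, n = 3 each). The Hspd1 call did not hold in 10 of 19 alternative analyses: its adjusted p was 0.114, 0.0895 and 0.136 without shGDF11 replicate 1, 2 and 3, 0.0595 and 0.0846 without control replicate 1 and 3, and 0.142 after rescaling to TPM. Of its 75-base stretches, 31.0% occur in other genes, most of them in a pseudogene.

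The genes are read in opposite directions from a shared promoter region, with RefSeq start sites 215 bases apart. Between these starts lies a run of 4 alternating units, the longest found among the chaperone genes, which is shown for that reason. It lies 127 bases from the Hspd1 start and 72 bases from the Hspe1 start, and the block is GRCm38.p6 plus strand chr1:55088053-55088082, with the run in capitals. All 30 bases shown lie in exons of GENCODE M21. RefSeq has a further Hspd1 start beyond that of Hspe1, and its window holds no run.
Hspd1 and Hspe1: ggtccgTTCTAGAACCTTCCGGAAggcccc

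J-domain proteins hand clients to HSP70 and start its cycle; class A has the full set of domains of bacterial DnaJ, class B lacks the zinc finger and class C shares only the J domain. In class A 1 of 4 tested genes rose, in class B 5 of 8 fell, and in class C 6 of 24 rose and 1 fell, beside 14.4% called higher and 13.1% lower of all genes tested. The others, 3 in class A, 3 in class B and 17 in class C, were not called, and differences between the classes were not tested. The median log2 fold change was 0.04 in class A, -0.46 in class B and 0.14 in class C. In class B the log2 fold change of all 8 tested genes was below 0, from -0.83 to -0.06.

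Dnajb4 (ENSMUSG00000028035, minus strand, chr3:152178511-152210302), a muscle-expressed partner of inducible HSP70, fell the most among J-domain genes. It stood at 9.62, 10.5 and 9.51 FPKM in shGDF11 and at 18.1, 17.7 and 18.01 FPKM in control, with little spread in either group (log2 fold change -0.83 ± 0.0613 SE, limma adjusted p = 0.000361). Dnajb1 (HSP40), the main inducible J-domain partner of HSP70, stood at 18.4, 17.02 and 18.9 FPKM in shGDF11 and at 26.4, 23.8 and 24.9 FPKM in control (log2 fold change -0.46, adjusted p = 0.0038). Dnajb2, which takes clients to the proteasome and is known from neurons, stood at 7.28, 6.73 and 6.81 FPKM in shGDF11 and at 10.6, 9.73 and 8.94 FPKM in control (log2 fold change -0.46, adjusted p = 0.00669). None of these groups overlapped, and the 3 calls held in all 19 alternatives.

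Dnajb5 stood at 3.40, 2.81 and 3.29 FPKM in shGDF11 and at 6.05, 5.32 and 4.12 FPKM in control. Its fall of 0.62 on the log2 scale was called (limma adjusted p = 0.0185), but not without shGDF11 replicate 2 (0.0693) or 3 (0.0536) or without control replicate 2 (0.0611). Dnajb3, a gene of low level here, stood at 1.16, 1.10 and 0.944 FPKM in shGDF11 and at 2.12, 1.83 and 1.69 FPKM in control (log2 fold change -0.60, adjusted p = 0.0124, and 0.0669 by voom on recovered reads). Dnajb6, which suppresses aggregation and whose human counterpart is mutated in a muscular dystrophy, stood at 22.4 to 24.3 FPKM in shGDF11 and at 23.9 to 25.2 FPKM in control and was not called. Dnajb12 and Dnajb14, membrane proteins of the endoplasmic reticulum, were not called either.

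Dnaja1 (ENSMUSG00000028410, plus strand, chr4:40722150-40737149), a class A partner of Hspa8, was the single class A gene called. It stood at 31.6, 32.5 and 30.4 FPKM in shGDF11 and at 23.1, 20.6 and 19.1 FPKM in control, without overlap. The log2 fold change was 0.58 ± 0.0799 (SE; limma adjusted p = 0.00278) and the call held in all 19 alternatives, while 18.4% of its 75-base stretches occur in other genes. Dnaja2, another cytosolic class A partner, Dnaja3 of mitochondria and Dnaja4 were not called, with log2 fold changes of 0.06, -0.04 and 0.01. Dnaja2 had the highest level in the class, at a mean of 84.7 FPKM in shGDF11 and 81.3 FPKM in control.

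Dnajc9 (ENSMUSG00000021811, minus strand, chr14:20384638-20388910), a co-chaperone of histones H3 and H4, rose the most among J-domain genes. It stood at 33.8, 34.7 and 32.2 FPKM in shGDF11 and at 21.4, 19.1 and 19.2 FPKM in control (log2 fold change 0.74 ± 0.0665 SE, limma adjusted p = 0.000707). Dnajc5, cysteine string protein of secretory vesicles, stood at 22.5, 22.7 and 22.3 FPKM in shGDF11 and at 14.6, 14.0 and 14.0 FPKM in control (log2 fold change 0.65, adjusted p = 0.000513). Dnajc1, a membrane protein of the endoplasmic reticulum, stood at 6.07, 6.60 and 6.86 FPKM in shGDF11 and at 4.53, 4.72 and 4.91 FPKM in control (log2 fold change 0.42, adjusted p = 0.00698). In these 3 genes every shGDF11 library lay above every control library, and the calls held in all 19 alternatives.

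The other class C calls were smaller. Dnajc2, a ribosome-associated chaperone (zuotin in yeast), stood at 9.72, 9.50 and 9.91 FPKM in shGDF11 and at 7.72, 8.27 and 7.55 FPKM in control (log2 fold change 0.29, limma adjusted p = 0.0155, and 0.0561, 0.0533 and 0.0635 without shGDF11 replicate 1, 2 and 3). Dnajc8, a splicing-associated protein and the single class C fall, stood at 39.2, 36.4 and 36.9 FPKM in shGDF11 and at 45.5, 42.7 and 42.1 FPKM in control (log2 fold change -0.21, adjusted p = 0.0377). The Dnajc8 call was lost without control replicate 1 (0.0527) or 2 (0.0768), without shGDF11 replicate 1 (0.0639), 2 (0.14) or 3 (0.122), and after rescaling to TPM (0.199). The remaining rises, named after their values were seen, were Dnajc14 (log2 fold change 0.33, adjusted p = 0.0237) and Dnajc25 (0.35, adjusted p = 0.038). Dnajc14 lost its call without control replicate 2 (0.0723) and without shGDF11 replicate 1 (0.0511), 2 (0.0649) or 3 (0.0833). Dnajc25 lost it without control replicate 1 (0.0599) or 2 (0.0811) and without shGDF11 replicate 1 (0.113), 2 (0.126) or 3 (0.0666). The class C rises numbered 3 without any 1 shGDF11 library. Dnajc7, a co-chaperone that binds both HSP70 and HSP90, is named for its dependence on 1 library, seen in its values: at 32.8, 35.1 and 34.0 FPKM in shGDF11 and 33.1, 27.3 and 27.5 FPKM in control it was not called (adjusted p = 0.106), but it was without control replicate 1 (0.00899).

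Several BAG genes encode exchange factors that release clients from HSP70. Of the 6 BAG genes 3 fell and 3 were not called (50% called, beside 27.6% of all genes tested). Bag3, which with Hspb8 and HSP70 clears damaged filamin in heart muscle, stood at 44.5, 44.9 and 47.0 FPKM in shGDF11 and at 65.3, 60.0 and 52.3 FPKM in control. Bag6, which guards new membrane proteins, stood at 45.1, 42.1 and 47.4 FPKM in shGDF11 and at 71.1, 62.6 and 57.2 FPKM in control. In both genes control replicate 3 was the control library nearest to shGDF11, without overlap. The log2 fold change was -0.37 for Bag3 (limma adjusted p = 0.0196) and -0.50 for Bag6 (adjusted p = 0.00848).

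Bag4, a silencer of death receptors, stood at 1.15, 1.29 and 1.19 FPKM in shGDF11 and at 1.89, 1.81 and 2.27 FPKM in control (log2 fold change -0.54, limma adjusted p = 0.0143). Leaving out a library ended the Bag3 call without control replicate 2 (0.0612) or shGDF11 replicate 1, 2 or 3 (0.069, 0.0725 and 0.0539), and the Bag4 call without shGDF11 replicate 1 (0.0503) or 3 (0.0504). The Bag6 call held in all 19 alternatives, and the BAG falls numbered 1 without shGDF11 replicate 1 or 3. Bag1, the most abundant of the family, stood at 133.6, 136.7 and 126.1 FPKM in shGDF11 and at 146.2, 139.9 and 139.4 FPKM in control, without overlap and not called (adjusted p = 0.231). Bag2 and Bag5 were not called, with log2 fold changes of -0.13 and 0.03.

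Among the heat shock factors Hsf4, best known from the lens, fell and the others were not called. Hsf4 (ENSMUSG00000033249, plus strand, chr8:105269801-105275845) stood at 2.43, 3.24 and 2.86 FPKM in shGDF11 and at 6.86, 5.95 and 6.57 FPKM in control. Its groups lay far apart for their spread, with a log2 fold change of -1.06 ± 0.109 (SE; limma adjusted p = 0.00105). Hsf1, the factor that drives the inducible genes and is controlled mainly as a protein, stood at 3.62, 3.67 and 4.24 FPKM in shGDF11 and at 5.19, 3.93 and 3.85 FPKM in control (adjusted p = 0.433). Hsf2 stood at 3.80, 4.08 and 3.70 FPKM in shGDF11 and at 2.52, 3.45 and 3.96 FPKM in control (adjusted p = 0.319). The groups of Hsf1 and Hsf2 overlapped.

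A list of 12 members held heat-inducible genes and partners of inducible HSP70, and with them the constitutive Hspa8. Falls were called for 7 of the 12 (Hspa1a, Hspa1b, Dnajb4, Dnajb1, Hspb1, Bag3 and Hspd1), a rise for Dnaja1, and 4 were not called (Hsp90aa1, Hspe1, Hsph1 and Hspa8). Over all genes tested, 13.1% were called lower and 14.4% higher. The median log2 fold change of the 12 was -0.31. Without any 1 shGDF11 library 4 falls remained, those of Hspa1a, Hspa1b, Dnajb1 and Dnajb4. The list was written with the calls of the earlier analysis known, so its count is no evidence of its own.

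**Figure D2:**
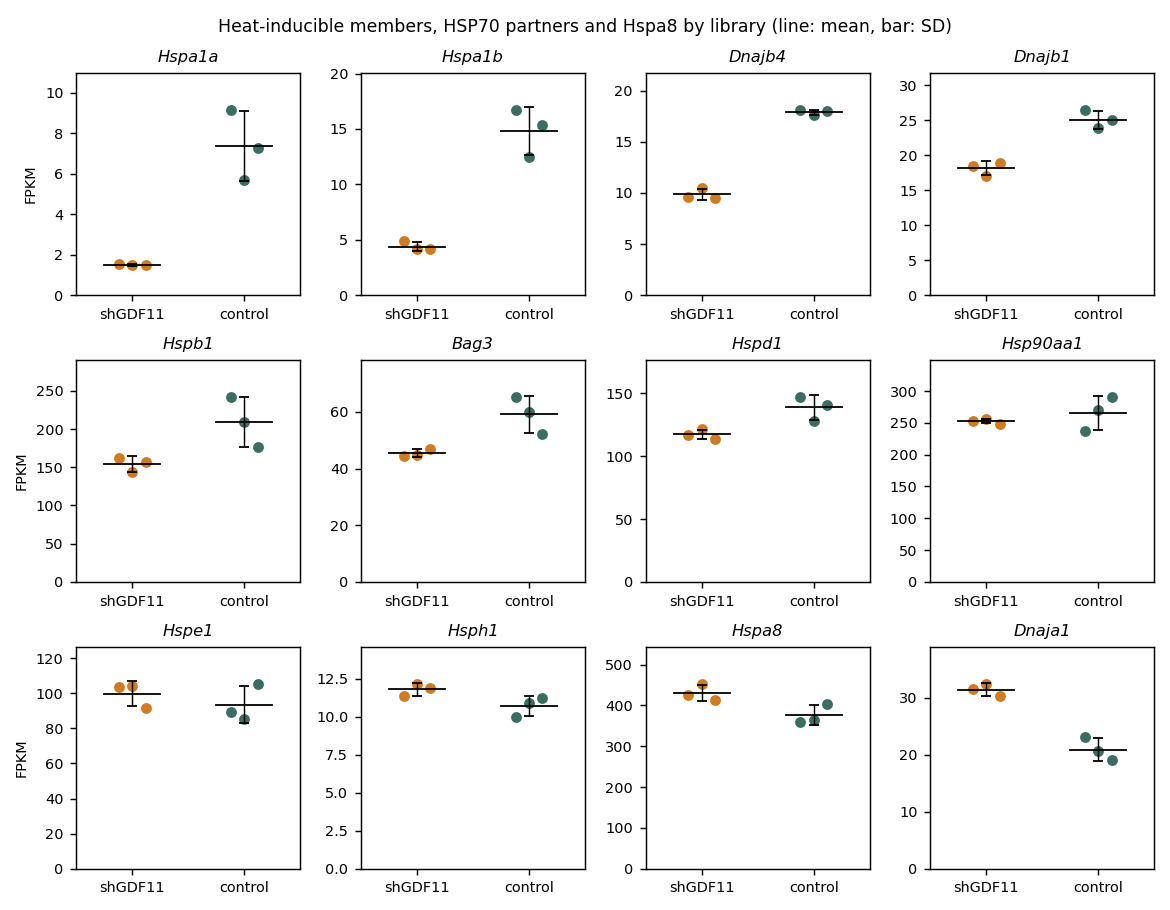
FPKM of 12 members, the heat-inducible genes and HSP70 partners with the constitutive Hspa8, in each library, shGDF11 left and control right; points are libraries, horizontal lines means and bars SD (n = 3 each), on linear axes from 0. The groups lie apart from Hspa1a, at 1.48 FPKM in shGDF11 and 7.36 FPKM in control on average, to Dnaja1, where shGDF11 is higher, and overlap for Hsp90aa1 and Hspe1.

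By compartment, the 10 members of mitochondria gave 1 rise (Hspa9), 1 fall (Hspd1) and 8 not called. That is 20% called, beside 27.6% of all genes tested, and the median log2 fold change of the 10 was 0.09. Those not called beside Hspe1 and Dnaja3 were Dnajc4, Dnajc11, Dnajc15, Dnajc19, Dnajc28 and Dnajc30, between -0.08 and 0.46. Both calls were lost whichever shGDF11 library was left out, by the adjusted p values given above.

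The summed level of all 76 genes differed between the groups by less than the spread between libraries, while its make-up differed. The sum was 3060 ± 47.3 FPKM in shGDF11 and 3100 ± 95.5 FPKM in control (SD, n = 3 each), and the genes took 1.09% of reads in shGDF11 and 1.08% in control. Hsp90ab1, Hspa8 and Hsp90aa1, in this order in both groups, made up 40.9% of the summed FPKM in shGDF11 and 36.9% in control. The share of HSP70 genes was 25.2% ± 0.521 in shGDF11 and 22.5% ± 1.16 in control, and that of HSP90 genes 26.8% ± 0.299 in shGDF11 and 24.8% ± 1.01 in control. Small heat shock protein genes held 15.0% ± 0.832 in shGDF11 and 19.0% ± 2.34 in control, the widest difference of any family. J class B genes held 2.58% ± 0.0347 in shGDF11 and 3.31% ± 0.015 in control, a small share with very little spread. These shares were not tested.

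**Figure D3:**
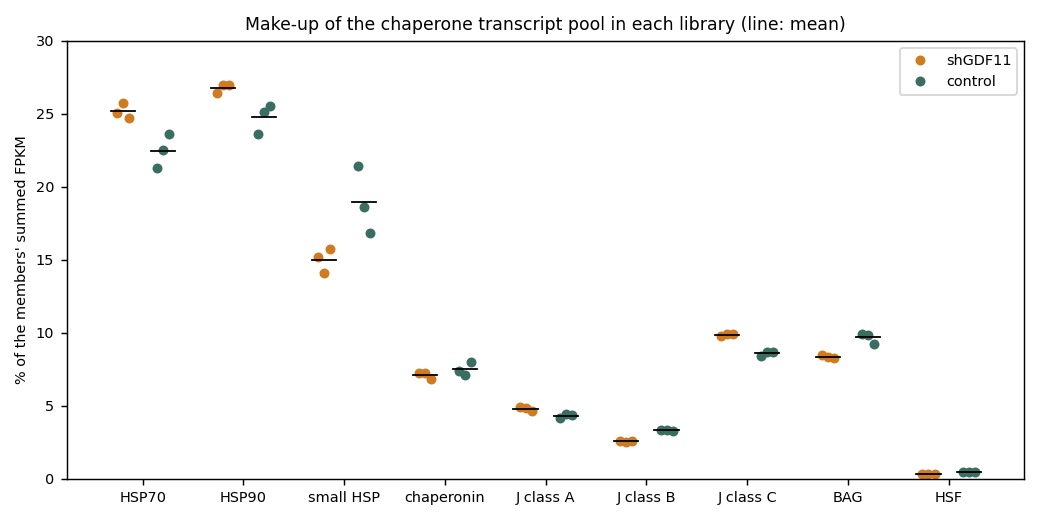
Share of the summed FPKM of the 76 chaperone genes held by each family in each library, in percent, with lines at the means; shGDF11 is left of control in each family. Shares of HSP70, HSP90, J class A and J class C genes lie higher in all shGDF11 libraries. Those of small heat shock protein, J class B, BAG and heat shock factor genes lie lower, and those of chaperonin genes overlap.

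Promoters of 60 of the 76 genes were found in a RefSeq table of 300 bases around each start (250 before and 50 after; 78 promoters, GRCm38.p6). Both strands were searched for GAANNTTC and TTCNNGAA, which are 2 alternating units 2 bases apart, and for the longer runs of 3 units, GAANNTTCNNGAA and TTCNNGAANNTTC, which contain the shorter ones. A run of at least 2 units was present for 17 of the 60 genes (28.3%), beside 15.8% of the protein-coding genes of the table, and in 24.4% of the 78 promoters, beside 15.1% of all promoters. A run of at least 3 units was present for 4 genes (6.67%), Dnajb6, Hspd1, Hspe1 and Hsph1, beside 0.576% of protein-coding genes. Hspd1 and Hspe1 share 1 run, and Hspa1a and Hspa1b hold copies of the same stretch. Each of these pairs therefore adds 2 genes to the counts for 1 sequence. Of the inducible members with a promoter, 9 of 10 held at least 2 units, and Dnajb1 did not within this window. Of members called lower 6 of 13 held at least 2 units, of members called higher 1 of 7, and of members not called 9 of 33. Hspa1a and Hspa1b, which fell the most, hold 2 exact units. The search counted exact units at this spacing only, so runs that include imperfect units are missed or counted short. Of the 4 genes with 3 or 4 units, Hspd1 was called lower (log2 fold change -0.24) and Hsph1, Hspe1 and Dnajb6 were not called. A match is a description of letters and not a bound site.

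The runs of the members described above are shown to let them be compared, in RefSeq sequence on GRCm38.p6, with the units in capitals. Hspb1, lower in shGDF11, has 2 runs of 2 units before its start on the plus strand, at chr5:135887791-135887820 and chr5:135887811-135887840. Dnajb4, also lower, has its run on the minus strand at chr3:152193841-152193870. RefSeq has a further Dnajb4 start near the outer end of the gene, and its window holds no run. Dnaja1, higher, has its run on the plus strand at chr4:40722333-40722362, and the windows of its other RefSeq starts hold none. Dnajb6 (plus strand, chr5:29735844-29735872) and Hsph1 (minus strand, chr5:149636280-149636308), neither called, have runs of 3 units.
Hspb1 (first run): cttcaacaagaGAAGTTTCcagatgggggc
Hspb1 (next run): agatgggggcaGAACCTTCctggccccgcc
Dnajb4: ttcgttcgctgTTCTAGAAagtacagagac
Dnaja1: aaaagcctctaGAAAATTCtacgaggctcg
Dnajb6: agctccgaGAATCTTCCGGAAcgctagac
Hsph1: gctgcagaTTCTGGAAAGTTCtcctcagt

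**Figure D4:**
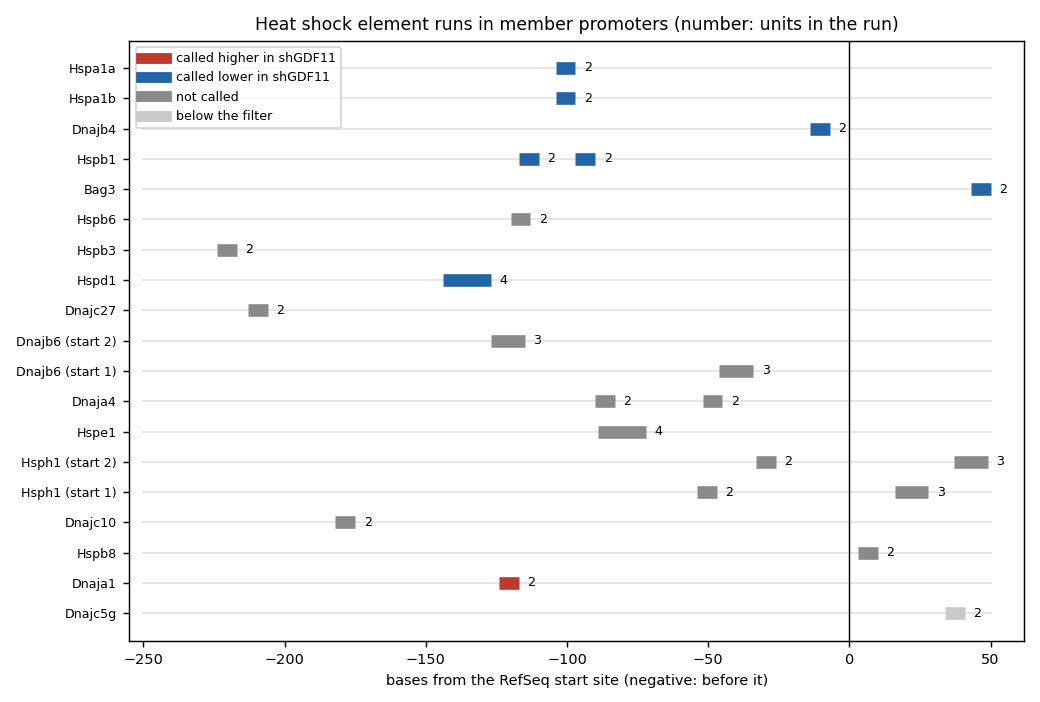
Position of each run of 2 or more alternating units in the promoters of the 17 chaperone genes that have one, in bases from the RefSeq start site; colours give the call in shGDF11 against control and numbers the units in the run. Only starts whose window holds a run are drawn, which gives 2 starts each for Dnajb6 and Hsph1. Some of the other genes have further starts without a run. Runs lie on both sides of the start and are of 4 units for Hspd1 and Hspe1, of 3 for Dnajb6 and Hsph1, which has a run of 2 as well, and otherwise of 2.

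Related genes outside the group were read from lists of 5 kinds, beside 27.6% called of all genes tested (14.4% higher and 13.1% lower). Of the 6 chaperones of the endoplasmic reticulum left out by name, 5 rose and Hspa13 was not called (83.3% called). Their median was 0.52 on the log2 scale. Hspa5 (BiP) averaged 273.8 FPKM in shGDF11 and 166.5 FPKM in control, and Hsp90b1 (GRP94) 212.7 FPKM in shGDF11 and 116.5 FPKM in control. The rises numbered 3 without shGDF11 replicate 1 or 2, and none of the 5 promoters found held a run of at least 2 units. Beside the log2 fold change of 0.72 for Hspa5, those of other HSP70 genes were -1.96 and -1.65 for the inducible pair, 0.20 for the far more abundant Hspa8, which was not called, and 0.55 for Hspa2, which was called higher. The summed FPKM of the HSP70 members was 770.3 ± 27.9 in shGDF11 and 695.8 ± 26.5 in control (SD, n = 3 each).

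Co-chaperones of HSP70 and HSP90 were mixed, with 5 of 22 higher and 4 lower and a median of 0.03. The called share was 40.9%, beside 27.6% of all genes tested. Fkbp4, an immunophilin of the HSP90 receptor complex, averaged 76.4 FPKM in shGDF11 and 56.2 FPKM in control, and Cacybp 52.6 FPKM in shGDF11 and 42.6 FPKM in control. Hspbp1, an exchange factor of HSP70, averaged 11.2 FPKM in shGDF11 and 19.7 FPKM in control, and Ptges3, the HSP90 co-chaperone p23, 51.4 FPKM in shGDF11 and 66.2 FPKM in control. The rises numbered 1 without shGDF11 replicate 1 or 2 or control replicate 2, 2 without shGDF11 replicate 3 and 8 after rescaling to TPM. The falls numbered 2 without any 1 library, and 1 after rescaling to TPM.

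The cytosolic chaperonin TRiC, which folds actin and tubulin, and its partner prefoldin gave 2 falls among 16 tested genes, with a median of -0.18. The called share was 12.5%, below the 27.6% of all genes tested. Pdrg1, a prefoldin-like subunit, averaged 21.9 FPKM in shGDF11 and 29.1 FPKM in control, and Cct3, a TRiC subunit, 37.0 FPKM in shGDF11 and 42.8 FPKM in control. None was called higher by limma, as at an unadjusted p under 0.05 and by voom on recovered reads. The falls numbered 0 without any 1 shGDF11 library, 1 without control replicate 2 and 5 without control replicate 1. Among 16 genes of mitochondrial protein quality control 2 rose and 3 fell, with a median of 0.03. That is 31.2% called, near the 27.6% of all genes and 30.3% of protein-coding genes tested. The protease gene Lonp1 averaged 86.2 FPKM in shGDF11 and 62.6 FPKM in control, and Trap1, the HSP90 of mitochondria, 112.5 FPKM in shGDF11 and 89.8 FPKM in control. Afg3l2, a protease of the inner membrane, averaged 52.1 FPKM in shGDF11 and 72.9 FPKM in control, and the matrix protease gene Clpp 28.0 FPKM in shGDF11 and 35.6 FPKM in control. Without shGDF11 replicate 2 there was 1 rise and 1 fall, and without shGDF11 replicate 3 there was 1 fall.

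Of 8 tested crystallins and other stress proteins 2 rose and 2 fell, with a median of 0.03. Called genes made up 50%, beside 27.6% of all genes tested. Clu (clusterin) averaged 761.6 FPKM in shGDF11 and 620.7 FPKM in control, and Serpinh1, the collagen chaperone HSP47, 455.7 FPKM in shGDF11 and 372.0 FPKM in control. Vcp, the segregase p97, averaged 106.9 FPKM in shGDF11 and 134.5 FPKM in control, and Sqstm1, the autophagy receptor p62, 164.8 FPKM in shGDF11 and 211.1 FPKM in control. The rises numbered 0 without any 1 shGDF11 library, 1 without control replicate 2 or 3 and 4 without control replicate 1. Cryab, which encodes the small heat shock protein alpha-B-crystallin and is no member by name, averaged 352.1 FPKM in shGDF11 and 298.2 FPKM in control and was not called (adjusted p = 0.0594).

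**Figure D5:**
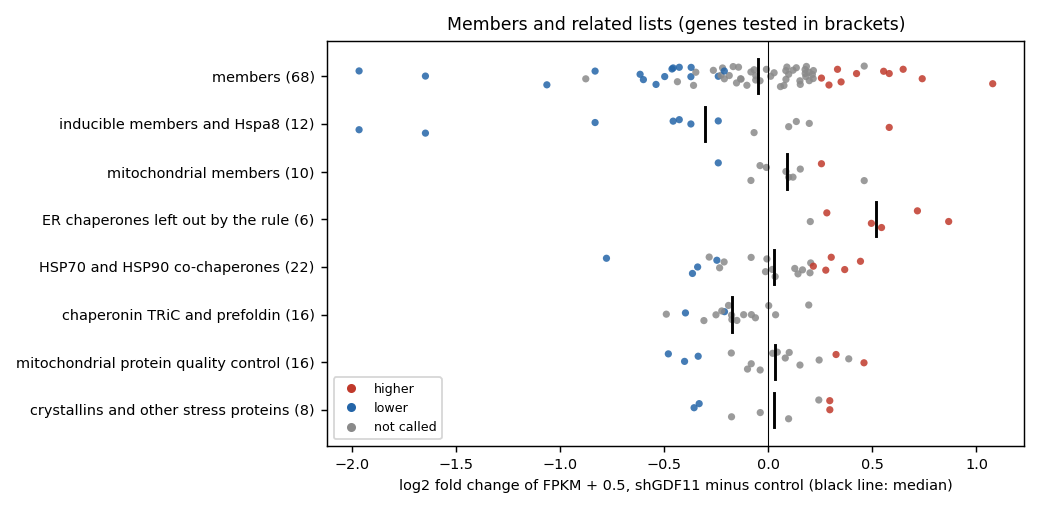
Log2 fold change of FPKM + 0.5, shGDF11 minus control, of each tested chaperone gene, of its inducible members (with Hspa8), its mitochondrial members and of 5 related lists; coloured points are called at a limma adjusted p under 0.05 and black lines are medians. The chaperones of the endoplasmic reticulum lie highest, with a median of 0.52, and the inducible members with Hspa8 lowest, with a median of -0.31.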

How the data were processed

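RNA of 6 libraries was measured by sequencing. The authors deposited FPKM values for 54532 genes. The tools featureCounts 1.5.0-p3, HISAT2 2.0.5 and CASAVA 1.8 and the builds GRCm38 and mm10 are listed without roles in the submitters' processing notes. The strand setting and annotation release were not given in the sources used here. In 99.97% to 100% of positive values, FPKM times gene length was within 0.05 of a whole read, which gave the reads behind the values and a depth of 15267083 to 16152910 reads in listed genes per library. Floors cover counting error only. The intervals of fold changes come from limma and rest on the spread between libraries, moderated over genes.

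Genes averaging 0.5 FPKM or more over the libraries entered a test on log2(FPKM + 0.5) by limma 3.58.1 in R 4.3.3 (moderated test with a variance trend, two-sided, Benjamini-Hochberg adjustment over all 15418 genes, call under 0.05). Fold changes, as shGDF11 minus control, are on that scale and are understated for genes of low level. Groups came from the treatment labels. There were 19 alternatives: the omission of each library, voom on recovered reads, a replicate block, library weights, the variance trend, the scaling, the filter and the pseudocount.

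The members, gene lists, panel of named genes and tests were chosen with earlier results of these data known. Named were Gdf11, a panel of members, up to 4 called members of each family in each direction by smallest p, and 2 called genes of each related list in each direction. Other genes were named after their values were seen. Symbols and coordinates were compared with GENCODE M21 of GRCm38, where all 76 members were found and 73 had the same coordinates. Exon bases opposite another gene and 75-base stretches shared with another gene were counted there. Exons of 9 members lay opposite another gene for over 10% of their bases, and 17 members shared over 10% of their stretches. Cct6a of the TRiC list is not protein-coding in the table and was left out. Promoters came from RefSeq (GRCm38.p6). No protein sequence was used here.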

Additional observations from a re-analysis of the deposited data

How the results depend on the processing

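Of the 25 chaperone calls, 13 held in every alternative that tested the gene, and of the 43 genes not called, 33 were never called; no gene reversed its direction while called. Chaperone calls numbered 14 to 30 across the alternatives. Leaving out 1 library gave 6 to 11 higher and 8 to 16 lower, against 10 and 15. Over all genes it gave 1256 to 2241 higher and 1072 to 1992 lower, against 2227 and 2026, and over the related lists 5 to 18 higher and 5 to 12 lower, against 14 and 11. With a filter of 5 FPKM 1474 genes were called higher, and after rescaling to TPM 1315 lower, where the median log2 fold change of all genes was 0.09. The related lists had 7 higher and 6 lower with no filter on low values, 9 higher without the variance trend and 7 lower after rescaling to TPM. The cause of these shifts was not tested, apart from the fewer libraries or genes by construction.

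The replicate numbers gave no sign of pairing: deviations of same-numbered libraries from their group means correlated at 0.0153, 0.0149 and -0.0521 across genes. With 3 libraries per group, such values cannot tell whether a number marks a shared culture or day. With the number as a replicate block, 1655 genes were called higher and 1568 lower, 20 chaperone genes were called, of which 19 were also called without the block, and 7 genes of the related lists were called higher. Not every library correlated best with its own number. The depth limits statements on the 8 chaperone genes below 0.5 FPKM.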
